A study of Mus musculus with 2 samples.

Results

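Epithelial cells around the tooth were described from single-cell RNA sequencing of mouse periodontal ligament, the connective tissue that ties the tooth root to the alveolar bone. A cell was counted as epithelial when the keratins Krt5, Krt14 and Krt17 together took at least 0.3% of its unique molecular identifiers (UMIs, counts of captured transcripts) and at least 1 UMI came from Epcam or Cdh1. Its collagen UMIs (Col1a1, Col1a2 and Col3a1) had to stay below 1%, and its S100a8 and S100a9 UMIs below 2%. Members were thus chosen by their own measured UMIs, so these levels are a description. The rule took 110 of 1760 cells, 17 of 348 in the control library (4.89%, exact 95% Clopper-Pearson interval 2.87% to 7.71%) and 93 of 1412 in the orthodontic tooth movement (OTM) library (6.59%, 5.35% to 8.01%). The intervals overlapped.

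Both libraries came from male C57BL/6J mice aged 8 weeks, with 5 animals pooled into each. In the OTM group a 10-g force had pulled an upper left molar mesially for 6 days, and the control group was the unloaded right side. Tissue clinging to the pulled roots and left in the sockets was digested with collagenase (2 mg/mL) and then trypsin (0.25%), for 30 min each. With 1 library per group there was no replicate check, so all differences given here are between 2 libraries and not between replicated conditions. Intervals are exact, are given at 95%, and cover counting error only, not variation between mice or cells.

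Background on these cells helps in reading the values. The gum is attached to the enamel by the junctional epithelium, which makes Odam and Amtn, secreted proteins of an inner basal lamina on the tooth surface. The oral gingival epithelium next to it stratifies above a Krt5- and Krt14-positive basal layer, and its upper layers make Krt4 and Krt13 or cornified envelope proteins such as the Sprr family. Small epithelial islands, the cell rests of Malassez, remain inside the ligament from the sheath that shaped the root. Scraping roots and sockets can collect any of them.

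Epithelial cells were the deeper cells of the OTM library, with a median of 39389 UMIs (range 2281 to 222392) against 18731 in its other cells. In the control library the medians were 16474 (3517 to 96867) and 14852. The summed UMIs behind the values were 390282 from the control cells and 4678302 from the OTM cells, so the control sums limited most comparisons. More than 5% mitochondrial counts were found in 6 control cells and in 11 OTM cells. No cell barcode was found in both libraries (0 shared), and 0 of the 110 cells were called doublets. Levels are in CPM, UMIs per 1000000 of the summed epithelial UMIs of a library, unless stated as UMIs per 10000 in single cells.

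Among cells that met the other conditions of the rule, keratin shares separated the members by a wide gap. Keratin shares inside the rule ran from 1.01% to 6.07% with a median of 2.75% in the control library, and from 0.675% to 8.01% with a median of 2.63% in the OTM library. Among cells that met the other conditions, the highest keratin share outside was 0.0139% in the control and 0.101% in the OTM library. The Epcam or Cdh1 condition was missed, with enough keratin, by 3 control and 18 OTM cells, and 4 OTM cells and 1 control cell passed it on a single UMI. The missed cells had keratin shares of up to 2.76% (control) and 5.62% (OTM), inside the range of the members, so this condition left no such gap. The S100 limit turned away 2 control cells and 5 OTM cells whose shares started at 3.59% and 2.32%, and the highest shares inside were 0.853% and 1.27%. The collagen limit turned away 6 OTM cells and 0 control cells, and the highest collagen share inside was 0.0663%.

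The label was checked against markers of other cells that the tissue holds. Vim, the intermediate filament of mesenchymal cells, stood at 10.2 CPM in control and 9.41 CPM in OTM epithelial cells, against 2274 and 4761 CPM in the other cells. The 6 fibroblast markers summed to 661 and 112 CPM, against 42643 and 43335 CPM in other cells, and Dcn was at 0 UMIs in the control. Of these 6 the rule capped Col1a1, Col1a2 and Col3a1, and did not use Dcn, Lum (2 and 15 UMIs) or Postn (216 and 109 UMIs). Macrophage markers summed to 17.9 and 8.76 CPM, Langerhans or dendritic markers to 23.1 and 13.9, endothelial markers to 7.69 and 3.85, and mural markers to 2.56 and 5.99. The 7 neutrophil markers summed to 354 and 1552 CPM (36116 and 15584 in other cells), almost wholly from S100a8 and S100a9, which the rule itself capped, so this sum is no check. The other 5 neutrophil markers, which the rule did not use, had between 0 and 72 UMIs each. The T cell sum of 279 and 128 CPM came from Trbc2 alone, with the other 2 T cell genes at 0 in both libraries. The osteoblast sum of 492 and 450 CPM came largely from Runx2 (489 and 444 CPM), with 3 of the 5 osteoblast markers at 0 in the control.

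Other epithelial genes outside the rule set the cells apart in both libraries. Background counts were large here, since 15.5% of 10547 genes in the control library and 9.56% of 16340 genes in the OTM library were at least 2-fold higher in epithelial than in other cells. The 12 genes with the highest lower bounds were Amtn, Krt42, Col17a1, Trp63, Wfdc2, Dsc3, Dsp, Fgfbp1, Tns4, Serpinb5, Fermt1 and Grip1. Col17a1, the hemidesmosomal collagen, stood at 661 CPM in control and 383 CPM in OTM epithelial cells, against 2.69 and 5.35 CPM in other cells. Trp63, the transcription factor of stratified epithelia, stood at 284 and 242 CPM, against 2.50 and 3.24 CPM. Dsp, which links desmosomes to keratin filaments, was seen in 17 of 17 and 93 of 93 cells (961 and 730 CPM, against 9.42 and 12.9 CPM). Col17a1, Trp63 and Dsp are features of stratified epithelium and were found in most epithelial cells of both libraries. Not all 12 genes were so widely held. Amtn was found in 9 of 17 and 9 of 93 cells, and Fgfbp1 in 4 of 17 and 35 of 93.

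Of 53 keratin genes in the annotation, 12 had at least 3 UMIs over the control cells and 24 over the OTM cells. Krt14 was level between the libraries, at 13962 and 13926 CPM (log2 ratio of OTM over control -0.00, -0.04 to 0.04). Krt17 stood at 8202 and 7709 CPM and Krt5 at 6165 and 4203 CPM. Krt6a, a keratin of wounded and fast-renewing epithelium, stood at 2001 and 3413 CPM, but its log2 ratio changed sign from 0.77 to -0.17 when each cell counted equally. Krt42 was lower in the OTM library, at 940 against 231 CPM (log2 -2.02, -2.19 to -1.85). Of the keratins of simple epithelium, Krt8 had 0 and 15 UMIs and Krt19 had 0 and 10. Krt18, the partner of Krt8, had 2 and 137 UMIs, or 5.12 and 29.3 CPM against 17.9 and 2.66 CPM in other cells, and was found in 1 control and 33 OTM cells. Krt42, Krt14, Krt16 and Krt17, and likewise Krt6a and Krt6b, are close copies, so the split of reads between them is uncertain.

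**Figure D1:**
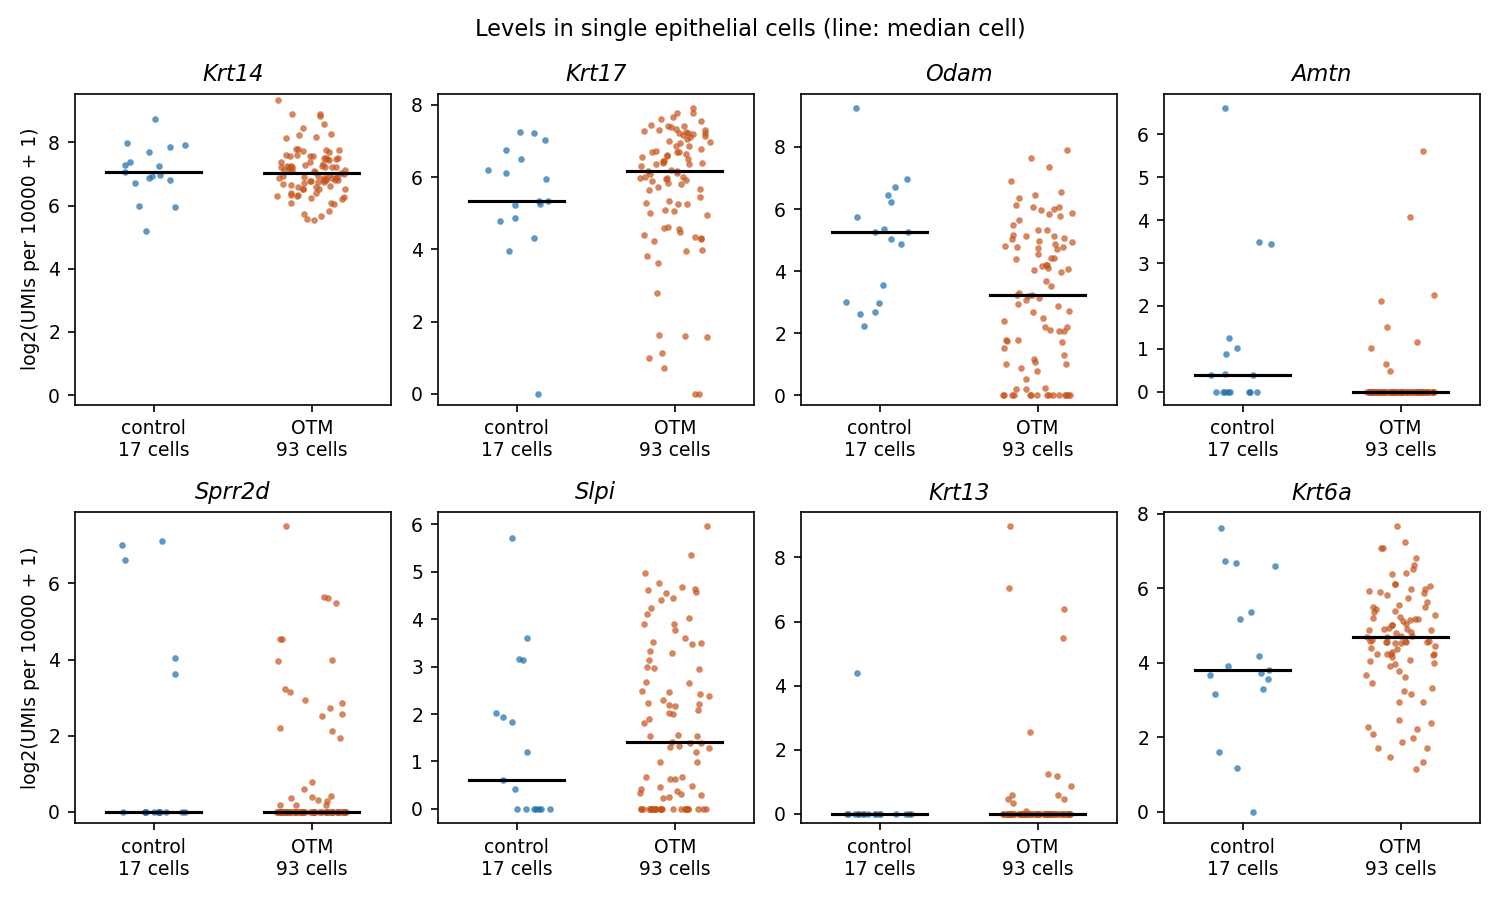
Each point is 1 epithelial cell and the line is the median cell; the vertical axis is log2 of UMIs per 10000 plus 1, for 17 control and 93 OTM cells. Krt14 medians nearly coincide (132 and 129 per 10000), Odam sits lower in the OTM cells (medians 37.0 and 8.45), and Krt13 is carried by a few cells.

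Odam, the junctional epithelium protein, varied widely among the cells. All 17 control cells had Odam UMIs, from 3.69 to 611 per 10000 with a median of 37.0. In the OTM library 78 of 93 cells had them, from 0 to 240 per 10000 with a median of 8.45, so the ranges overlapped. Among other cells 1.51% (control) and 3.79% (OTM) had an Odam UMI, at median depths of 14852 and 18731. With each cell thinned to 1500 UMIs, Odam was seen in 82.4% of control and 65.6% of OTM epithelial cells. Summed over cells, the level was 9637 CPM (control) against 2206 CPM (OTM; log2 -2.13, -2.18 to -2.07), and 65.1% of the control UMIs came from 1 cell. Without that cell the log2 ratio was -0.77, inside 2-fold, and with cells counted equally it was -1.55.

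Cells with Odam at or above 0.1% of UMIs were called Odam-rich, which is a range of a continuous level and not a cell type. The control library had 12 among its 17 (70.6%, 44.0% to 89.7%). The OTM library had 45 among its 93 (48.4%, 37.9% to 59.0%), and the intervals overlapped. The level ran through the threshold without a gap. The lowest shares inside were 0.107% and 0.105%, the highest outside were 0.0707% and 0.0889%, and 5 control and 19 OTM cells lay within 2-fold of it. A threshold of 0.05% gave 94.1% and 59.1%, and there the intervals did not overlap, so the overlap depends on the threshold.

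The epithelial cells are split here by Odam and by Sprr2d, and Amtn is the other lamina protein. The sequences before the starts of these 3 genes are shown. Odam lies on chromosome 5 at 87885029-87894174, Amtn on chromosome 5 at 88376108-88385916 and Sprr2d on chromosome 3 at 92339140-92340873, all on the plus strand of GRCm38 (GENCODE M21). The windows of 300 bases, from 250 bases before to 50 bases after the RefSeq start, were found for 3 of 3 genes in the RefSeq promoter table of GRCm38.p6. The RefSeq start of Odam, at 87885010, lies 19 bases before its GENCODE start, and those of Amtn and Sprr2d coincide with it. Distances are counted from the RefSeq start. Capitals mark the AP-1 motif TGANTCA, the TATA motif TATAAA and the CCAAT motif, searched on both strands.
Odam promoter, chr5:87884760-87885059, + strand: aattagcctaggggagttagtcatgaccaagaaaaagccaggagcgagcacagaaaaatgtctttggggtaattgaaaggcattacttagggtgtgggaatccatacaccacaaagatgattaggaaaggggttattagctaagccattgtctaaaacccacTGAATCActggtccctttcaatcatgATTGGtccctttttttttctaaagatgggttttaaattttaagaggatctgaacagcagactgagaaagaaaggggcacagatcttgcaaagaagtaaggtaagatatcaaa
Amtn promoter, chr5:88375858-88376157, + strand: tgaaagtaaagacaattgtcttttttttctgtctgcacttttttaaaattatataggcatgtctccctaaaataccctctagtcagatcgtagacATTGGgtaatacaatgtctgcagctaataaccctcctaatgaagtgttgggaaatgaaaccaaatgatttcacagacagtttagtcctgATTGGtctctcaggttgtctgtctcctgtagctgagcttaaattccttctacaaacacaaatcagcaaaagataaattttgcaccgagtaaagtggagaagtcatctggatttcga
Sprr2d promoter, chr3:92338890-92339189, + strand: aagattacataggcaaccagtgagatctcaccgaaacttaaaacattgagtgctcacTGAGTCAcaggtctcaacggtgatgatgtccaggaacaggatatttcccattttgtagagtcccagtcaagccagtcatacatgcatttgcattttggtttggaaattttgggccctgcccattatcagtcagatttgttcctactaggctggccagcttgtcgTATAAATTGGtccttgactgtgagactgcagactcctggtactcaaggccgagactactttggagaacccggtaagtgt

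Each of the 3 windows held the CCAAT motif, in its reverse form ATTGG. Of 32851 promoter windows of this length, 37.4% held the motif in either form. In Odam it began 62 bases before the start, in Amtn 66 and 155 bases before it, and in Sprr2d 24 bases before it, where it overlapped the TATA motif. The AP-1 motif was in Odam (TGAATCA, 88 bases before the start) and in Sprr2d (TGAGTCA, 193 bases before), but not in the Amtn window, and 7.81% of all windows held it. The TATA motif was in Sprr2d alone among the 3, and 13.6% of all windows held it. These matches describe letters and not binding.

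Amtn, the other lamina protein, was concentrated in very few cells. It reached 10 per 10000 in 2 control and 2 OTM cells, all 4 of them Odam-rich and 0 of them Sprr2d-rich. Summed Amtn was at 1112 CPM (control) against 61.1 CPM (OTM; log2 -4.19, -4.41 to -3.97). A single control cell held 89.9% of the control UMIs, and without it the log2 ratio was -1.04. In other cells Amtn stood at 2.11 CPM in the control and was at 0 UMIs in the OTM library. Ambn, an enamel matrix gene, stood at 48.7 and 8.55 CPM and came from 4 control cells and 1 OTM cell, and non-epithelial control cells held 55.5 CPM of it.

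Within the OTM library some Odam-rich cells held further genes that the threshold did not use. Of 12248 genes compared, 4.69% were at least 2-fold higher and 13.4% at least 2-fold lower in Odam-rich than in the remaining epithelial cells. The 12 with the highest lower bounds were Sprr2d, Amtn, Ppbp, Sprr2f, AA467197, Lce1g, Chil1, Sprr2e, Fxyd2, Kcnmb2, Mmp12 and Atp13a4. Ppbp, a neutrophil-attracting chemokine, stood at 1095 against 14.9 CPM (log2 6.20, 5.73 to 6.71), in 20 of 45 against 5 of 48 cells. Sprr2d was found in 26 of the 45 Odam-rich cells and the other 11 genes in 6 to 20 of them, so most were held by a minority. Several lay largely in the Sprr2d-rich cells, which are described next: of the 240 AA467197 UMIs in Odam-rich OTM cells, the 8 Sprr2d-rich cells held 201. In the control library the Sprr2d-rich cells held all 13 UMIs of AA467197 and all 17 of Chil1, a chitinase-like secreted protein. The basal keratins differed little, since Krt14 stood at 15881 against 12205 CPM and Krt5 at 4562 against 3886 CPM in the OTM library.

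Sprr2d, a small proline-rich protein of the cornified envelope, marked a smaller set. It was at 0 in 12 control and 65 OTM cells, and reached 136 and 180 per 10000 in the highest cells. Sprr2d-rich cells, at or above 0.1% of UMIs, numbered 5 in the control library (29.4%, 10.3% to 56.0%) and 8 in the OTM library (8.60%, 3.79% to 16.2%). The intervals overlapped, and 2 control and 7 OTM cells lay within 2-fold of the threshold. In each library the count of Sprr2d-rich cells outside the Odam-rich range was 0 (of 5 and of 8). The Sprr2 genes are near-identical neighbours, so counts may be split between them.

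Sprr2d-rich cells had a lower median depth than all epithelial cells in both libraries, but a higher median of mitochondrial counts in the control alone. In the control library they had a median of 6031 UMIs and 8.65% mitochondrial counts, against 16474 and 2.23% over all epithelial cells. Of these 5 cells, 4 exceeded 5% mitochondrial. In the OTM library the medians were 21223 UMIs and 2.82%, against 39389 and 2.96% over all epithelial cells. There 1 of 8 exceeded 5%, against 11 of all 93. Summed Sprr2d was at 694 CPM (control) against 367 CPM (OTM; log2 -0.92, -1.10 to -0.73), but the direction turned to 3.46 without cells over 5% mitochondrial, and to 0.17 without the control cell that held 54.2% of the control UMIs. With cells thinned to 1500 UMIs, 29.4% of control and 12.9% of OTM cells had a Sprr2d UMI, against 29.4% and 30.1% unthinned and 1.51% and 2.50% of other cells unthinned. The part of depth and mitochondrial counts in these values was not tested.

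**Figure D2:**
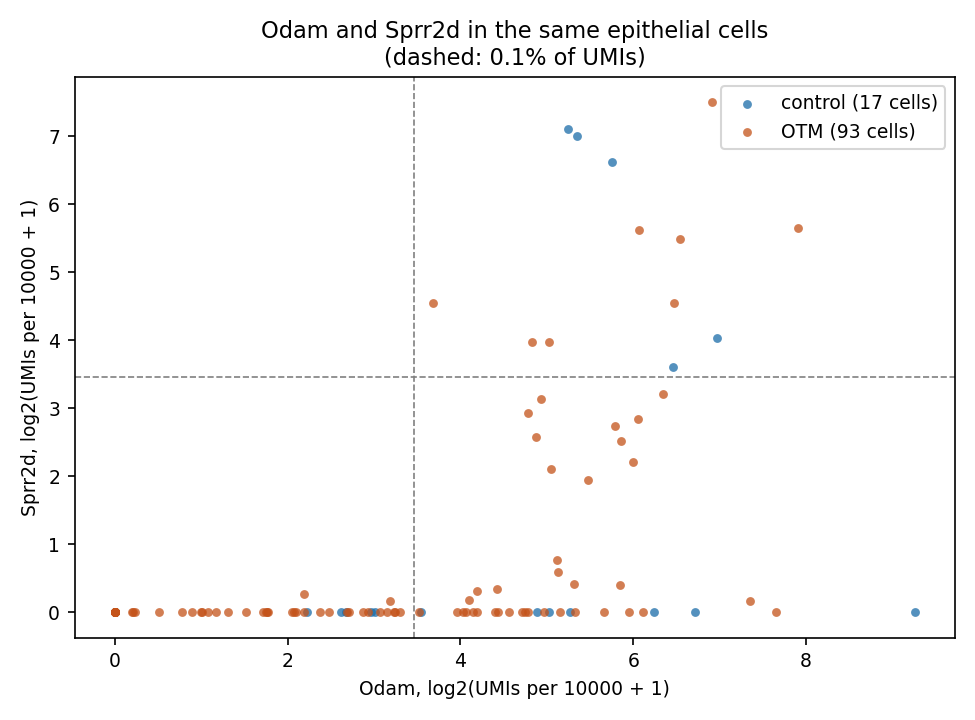
Each point is 1 epithelial cell, with log2 of Odam UMIs per 10000 plus 1 on the horizontal axis and the same for Sprr2d on the vertical axis; dashed lines mark 0.1% of UMIs. The 5 control and 8 OTM cells above the Sprr2d line lie right of the Odam line, and most Odam-rich cells stay low in Sprr2d.

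Sprr2d-rich OTM cells were also compared with the remaining epithelial cells of that library. Their summed 512092 UMIs came mostly from a cell of 206133 and a cell of 204759 UMIs, so the summed levels lean on these cells. Of 9521 genes compared, 2.50% were at least 2-fold higher and 30.0% at least 2-fold lower than in the remaining OTM epithelial cells. The named genes were Sprr2f, Prss27, AA467197, Crct1, Sprr2e, Dynap, Chil1, Hs3st1, Slc6a14, Pglyrp1, Ppbp and Pdzk1ip1. Dynap stood at 1092 against 76.8 CPM (log2 3.83, 3.63 to 4.03, but 1.98 without its highest cell) in the OTM library and at 1409 against 8.41 CPM in the control. Slc6a14, an amino acid transporter, stood at 803 against 99.6 CPM (log2 3.01, and 2.14 without its highest cell) and in the control at 1229 against 72.8 CPM. Pdzk1ip1 stood at 393 against 55.4 CPM and in the control at 1499 against 11.2 CPM. For these 3 genes the control cells gave the same order, each in 5 of 5 Sprr2d-rich cells.

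Of the stress keratins, Krt6b and Krt16 were higher in the Sprr2d-rich cells, and Krt17, a gene of the rule, was not. Krt17 ran from 19.1 to 39.8 per 10000 in the control Sprr2d-rich cells, against a median of 39.8 over all control epithelial cells. In the OTM library it ran from 1.00 to 204 per 10000, against a median of 70.8. The Sprr2d-rich OTM sums again lean on the deepest cells, and means over cells are not given for the genes below. Krt6b stood at 5886 CPM in Sprr2d-rich and 1491 CPM in remaining OTM cells, and at 9924 against 120 CPM in the control. Krt16 stood at 5329 against 2399.5 CPM, and in the control at 17119 against 2586 CPM. Col17a1, which anchors basal cells, went the other way at 129 against 414 CPM (log2 -1.68, -2.06 to -1.33). Itgb4, the hemidesmosome integrin, likewise stood at 131 against 395 CPM. In the control Sprr2d-rich cells each of these had 1 UMI, with a log2 ratio to the remaining cells of -4.71 (-10.02 to -2.22) for Itgb4. S100a9 was held low by the rule, and still stood at 3718 against 316 CPM in the OTM library and at 2428 against 11.2 CPM in the control. Neutrophil markers other than S100a8 and S100a9 were near 0 in the epithelial cells, Ltf being the highest at 0 and 15.4 CPM.

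The summed epithelial counts of the OTM and control libraries were then compared. A gene was compared where equal levels would have given 3 or more UMIs in both libraries. Of 9002 such genes, 960 (10.7%) were at least 2-fold higher and 904 (10.0%) at least 2-fold lower in the OTM library, 20.7% in all. These shares are the background for the counts of every gene list below. The median log2 ratio over these genes was -0.11, with quartiles of -0.57 and 0.35. Single cells weighed heavily in the control sums. When the cell with most UMIs of a gene was left out of each library in turn, 865 of the 960 higher genes and 435 of the 904 lower genes (48.1%) stayed past 2-fold, and this choice, added after the data were seen, by itself lowers the level of the library it is made in. A gene at 0 UMIs in the control stays higher by construction as long as any OTM UMI is left. The share of higher genes among the 1864 calls was 51.5%, and scaling by TMM (trimmed mean of M values) made it 62.7% with a shift of 0.14 in all log2 ratios. The median-of-ratios scale made it 62.4%.

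The 12 genes that stood highest in the OTM library were of 3 kinds. Lgals7, Fabp5, Krtdap and Krt13 belong to stratifying keratinocytes, Ube2c, Hist1h1b, Top2a, Pclaf and Mki67 to dividing cells, and Orm1, Ppbp and Slc1a3 to neither. Lgals7, a galectin of stratified epithelia, had 18 UMIs in the control and 7457 in the OTM cells, or 46.1 and 1594 CPM (log2 5.11, 4.45 to 5.87). Single control cells reached 1.73 per 10000 with a median of 0.249, and OTM cells reached 101 with a median of 4.38. When thinned to 1500 UMIs, 5.88% of control and 54.8% of OTM cells had an Lgals7 UMI, against 52.9% and 84.9% unthinned and 3.02% and 3.49% of other cells. Fabp5, a fatty acid binding protein, stood at 197 and 4258 CPM (log2 4.43, 4.11 to 4.77). OTM cells reached 401 per 10000 and control cells 20.5.

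Orm1, an acute phase plasma protein, was at 0 UMIs in the 17 control cells and at 1236 UMIs in 47 of 93 OTM cells. Set against a floor of 3 UMIs over the control sum, it was at least 34.4-fold higher. Other cells held 19.2 and 14.4 CPM of Orm1. Slc1a3, a glutamate transporter, stood at 15.4 and 471 CPM (log2 4.94, 3.81 to 6.39), in 1 control cell and 70 OTM cells. Thinned, it was seen in 0 of 17 control cells and 37.6% of OTM cells. The exact interval of the former reaches 19.5% of cells with a UMI at that depth. Within the OTM library Slc1a3 was lower in Odam-rich than in remaining cells, at 168 against 738 CPM.

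**Figure D3:**
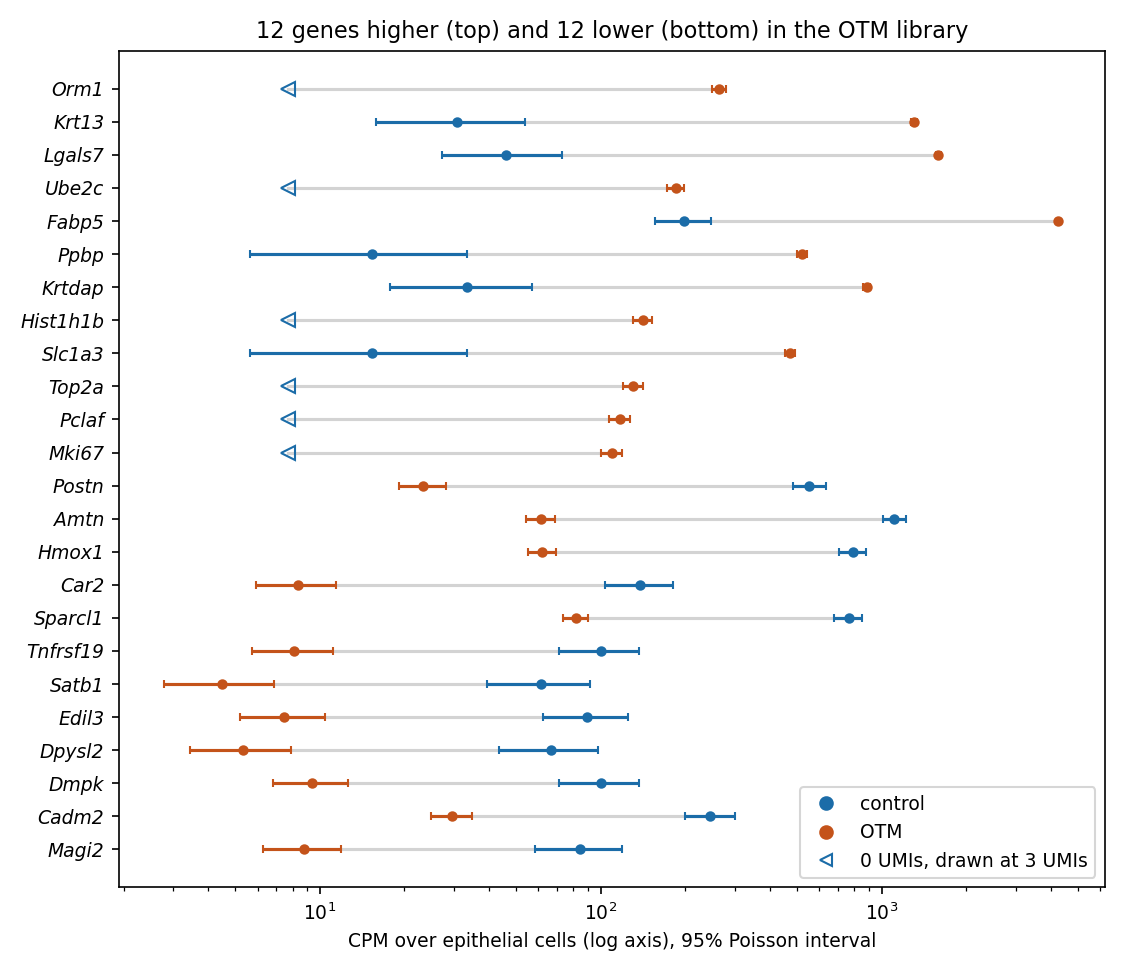
The horizontal log axis gives CPM over the epithelial cells of each library with its 95% Poisson interval, for the 12 genes highest and the 12 lowest in the OTM library; open triangles are sums of 0, drawn at 3 UMIs. Orm1 and 5 cell division genes are at 0 in the control, and Postn, Amtn and Hmox1 lead the lower genes.

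The libraries differed in their share of Odam-rich cells, so values are also given within Odam-rich cells (12 control and 45 OTM) and within the remaining cells (5 and 48). The named genes were chosen for their ratio in these same cells, so these values describe and do not support it. Fabp5 stood at a log2 ratio of 4.65 within Odam-rich and 3.82 within remaining cells. Krt13 was lower within Odam-rich OTM cells (-3.36, on 12 and 9 UMIs), and Hmox1 lay inside 2-fold there (-0.85). Ppbp had 0 and 37 UMIs in the remaining cells, too few control UMIs to give a ratio.

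Cell division genes were higher in the OTM epithelial cells. The 15 genes of the cell cycle list all lay past 2-fold higher in the OTM cells, with a median log2 ratio of 3.39 against -0.11 over all genes tested. Mki67, the common marker of cycling cells, was at 0 UMIs in the control and at 512 UMIs in 41 of 93 OTM cells, at least 14.2-fold higher. Top2a, which untangles DNA, was at 0 and 609 UMIs, and Cdk1, the kinase of mitotic entry, at 0 and 457. Hmgb2 stood at 182 and 628 CPM (log2 1.79, 1.45 to 2.15) and Pcna, the sliding clamp of replication, at 61.5 and 133 CPM (1.11, 0.53 to 1.77). In all, 9 of the 15 genes were at 0 in the control.

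Per cell, the 15 genes together took a median of 2.55 and at most 8.25 UMIs per 10000 in control cells. OTM cells had a median of 5.84 and a highest value of 108. Of the OTM cells, 43 of 93 (46.2%, 35.8% to 56.9%) lay above the highest control cell. After thinning to 1500 UMIs, 1 of 17 control cells and 56 of 93 OTM cells had a UMI from the list, against 16 and 89 unthinned. The sums were 282 and 2183 CPM in epithelial cells and 1177 and 1416 CPM in all other cells, so control epithelial cells stood below the other cells of their library and OTM epithelial cells above. No phase was called, and free RNA from other dividing cells was not measured separately.

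Within the OTM library the division genes were higher in cells poor in Odam. The list summed to 1124 CPM in Odam-rich cells and 3115 CPM in the remaining cells. Of Odam-rich cells 13 of 45 lay above the highest control cell, and of the remaining cells 30 of 48 did. Mki67 stood at 43.4 against 168 CPM (log2 -1.95, -2.29 to -1.63). In the control library the remaining cells were only 5, and their list sum was 457 against 217 CPM. With Odam-rich cells left out of both libraries, the list median was 1.91, and the control sum then came from 5 cells. Control sums under 3 UMIs were set to 3 over this smaller total, which by itself lowers the ratios of such genes. Mki67 was still at 0 in the control, and its floored log2 ratio was 2.55 against 3.83 over all epithelial cells. The lower median is therefore not read as a smaller difference.

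**Figure D4:**
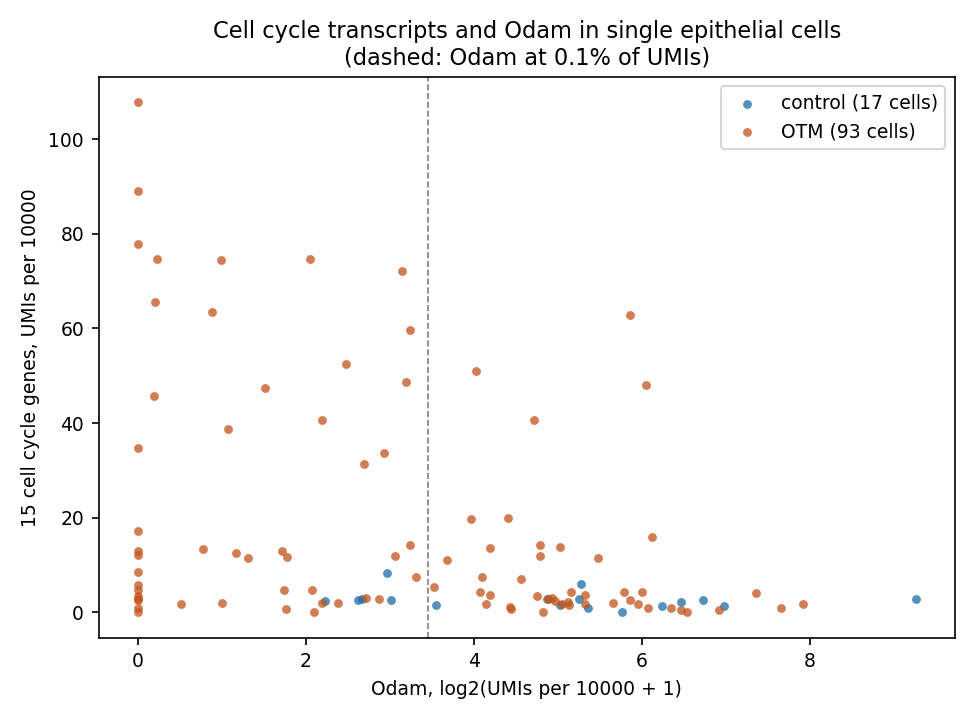
Each point is 1 epithelial cell, with log2 of Odam UMIs per 10000 plus 1 on the horizontal axis and the summed UMIs per 10000 of 15 cell cycle genes on the vertical axis. Control cells stay at or below 8.25, and OTM cells left of the dashed line (Odam at 0.1%) reach 108.

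The sums of differentiation genes depended on how cells were weighted. Of 24 genes tested on the list of differentiation and cornification, 13 lay past 2-fold higher and 0 past 2-fold lower, with a median log2 ratio of 0.99. With cells counted equally the median was -0.04, and with Odam-rich cells left out it was 2.15. Without the OTM cell highest in each gene it was 0.34, and 8 of the 13 genes stayed past 2-fold. The 5 Sprr2d-rich control cells held 57293 CPM of the list against 4651 CPM in the other control cells. Krt13 and Krt4, the keratin pair of non-cornified oral lining, stood at 30.7 and 1303 CPM and at 10.2 and 600 CPM. They came from few cells: 4 OTM cells had Krt13 at 44.2 to 501 per 10000. All 12 control Krt13 UMIs came from 1 cell, at 19.9 per 10000. Without cells at or above 10 per 10000 the Krt13 log2 ratio was 0.14, but no control UMI was then left. That value rests on the floor set for low control sums, so no direction is read from it. Odam was at 0 in these 4 OTM cells, and Krt17 stood between 0.641 and 13.2 per 10000 in them.

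Krtdap, a secreted keratinocyte protein, stood at 33.3 and 885 CPM (log2 4.73, 3.96 to 5.64), in 4 control and 51 OTM cells, but in 11.8% and 12.9% of cells once thinned. Sprr1b stood at 25.6 and 233 CPM (3.18, 2.30 to 4.25) in 5 and 37 cells. Ly6d stood at 213 and 802 CPM, but its log2 ratio of 1.91 became 0.07 with cells counted equally. Krt6b stood at 958 and 1972 CPM (1.04, 0.89 to 1.19), Sbsn at 56.4 and 135 CPM (1.26, 0.65 to 1.95) and Sprr3 at 23.1 and 64.8 CPM (1.49, 0.55 to 2.63). Sprr3 was found in 2 control and 4 OTM cells, with 84.2% of the OTM UMIs in 1 cell. With cells counted equally the sign turned for Krt6b (-0.29), Sprr3 (-0.78) and Cnfn (from 1.28 to -0.87). Without the OTM cell highest in each gene it turned for Sprr3 (-1.15) and Cnfn (-0.38), and Krt6b (0.87) and Sbsn (0.97) lay inside 2-fold. Krt1, of cornifying epidermis, was at 0 and 72 UMIs, the latter in 1 cell.

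Several neutrophil-attracting chemokines of the CXC family were higher in the OTM epithelial cells. Of 15 chemokine and cytokine genes tested, 8 were at least 2-fold higher and 2 at least 2-fold lower, with a median log2 ratio of 0.76 that became -0.40 without the OTM cell highest in each gene. All 8 higher genes stayed past 2-fold without the highest cell of either library, and 0 of the 2 lower genes did. For Csf3, Ccl20 and Cxcl14 this was fixed in advance, since they had 0 control UMIs. Of the 150 Cxcl14 UMIs in the OTM library 88 came from 1 cell. Cxcl5 stood at 466 and 2310 CPM (log2 2.31, 2.10 to 2.53), against 3.27 and 105 CPM in other cells. It was found in 8 of 17 control and 72 of 93 OTM epithelial cells and in 0.906% and 7.05% of other cells, and 65.9% of the control UMIs came from 1 cell (log2 3.75 without it). Within Odam-rich cells it stood at 182 and 2918 CPM, and within the remaining cells at 1239 and 1774 CPM (log2 0.52, 0.27 to 0.78). Cxcl3 stood at 305 and 774 CPM (1.34, 1.08 to 1.62, and 2.74 without its highest control cell). Its log2 ratio was 1.84 within Odam-rich cells and 0.80, inside 2-fold, within the remaining cells. Cxcl1 stood at 876 and 707 CPM (-0.31, -0.47 to -0.14), but 57.6% of the control UMIs came from 1 cell, and without it the log2 ratio was 0.79. The Cxcl1 log2 ratio was 1.68 within Odam-rich cells and -2.01 within the remaining cells.

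Ppbp, another ligand of that family, stood at 15.4 and 520 CPM (log2 5.08, 3.96 to 6.53), from 1 control cell and 25 OTM cells. Cxcl2 had 2 UMIs in the control and 1849 in the OTM library (6.27, 4.41 to 9.32), but other cells held more of it (1353 and 938 CPM) than the 395 CPM of OTM epithelial cells. Csf3, the growth factor of neutrophils, was at 0 and 465 UMIs and at least 12.9-fold higher, with 64.9 CPM in other OTM cells against 99.4 CPM in epithelial ones. Il1a had 1 and 251 UMIs (4.39, 1.90 to 9.70), and Ccl20 had 0 and 61 UMIs. Ccl2 had 1 and 289 UMIs, with 367 CPM in other OTM cells. Tnf stood at 84.6 and 39.5 CPM (-1.10, -1.64 to -0.52), but 1 cell held 78.8% of the control UMIs, and without it the direction turned (1.00).

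Secreted defence proteins were mixed. Of 6 antimicrobial and barrier genes tested, 2 lay past 2-fold higher and 0 lower, with a median log2 ratio of 0.33 that became -0.29 with cells counted equally. Wfdc2, a secreted protease inhibitor, stood at 436 and 1606 CPM (log2 1.88, 1.66 to 2.11), in 16 of 17 and 89 of 93 cells, with 4.23 and 27.5 CPM in other cells. The Wfdc2 log2 ratio was 2.51 within Odam-rich cells and 0.91, inside 2-fold, within the remaining epithelial cells. Slpi, a related inhibitor of neutrophil elastase, stood at 218 and 791 CPM (1.86, 1.55 to 2.19). Its log2 ratio was 0.25 with cells counted equally and 2.49 without its highest control cell, and other cells held 200 and 491 CPM. Within Odam-rich cells the Slpi log2 ratio was 2.55, and within the remaining epithelial cells it was 0.78. Il1rn, the interleukin-1 receptor antagonist, stood at 241 and 392 CPM and Defb1, a defensin, at 105 and 89.6 CPM.

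Glutathione and antioxidant genes were partly higher. Of 12 tested, 5 lay past 2-fold higher and 1 lower, with a median log2 ratio of 0.46. Gpx2, an epithelial glutathione peroxidase, stood at 141 and 578 CPM (log2 2.04, 1.65 to 2.45, and 3.70 without its highest control cell). Slc7a11, the cystine importer, stood at 94.8 and 496 CPM (2.39, 1.92 to 2.90, and 3.18 without its highest control cell), in 4 of 17 and 82 of 93 cells. Gclm, a subunit of the enzyme that starts glutathione synthesis, stood at 167 and 485 CPM (1.54, 1.19 to 1.92). Its log2 ratio was 0.78, inside 2-fold, within Odam-rich cells and 2.27 within the remaining cells. Gsta4 and Gsto1, the most abundant, differed less, at 1466 and 1580 CPM and at 1053 and 1463 CPM.

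Hmox1, the haem-degrading enzyme, went the other way at 789 and 62.0 CPM (log2 -3.67, -3.91 to -3.43). A single cell held 68.8% of the control Hmox1 UMIs, and the log2 ratio was -2.10 without it. Hmox1 was seen in 8 of 17 control and 68 of 93 OTM cells. Other cells held 280 and 262 CPM.

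Among glycolysis and hypoxia genes, 2 of 16 lay past 2-fold higher and 1 lower, with a median log2 ratio of 0.31. Over all genes tested 10.7% lay past 2-fold higher and 10.0% lower, so these counts are near the background. Ldha, which makes lactate, stood at 820 and 2434 CPM (log2 1.57, 1.41 to 1.73). Pgk1 stood at 310 and 690 CPM (1.16, 0.89 to 1.43), and Gapdh at 1158 and 2188 CPM (0.92, 0.78 to 1.06). Ldha was higher within Odam-rich cells (1.36) and within remaining cells (2.41). Vegfa, the vascular growth factor, was lower at 99.9 and 42.5 CPM (-1.23, -1.73 to -0.70), but lay inside 2-fold without its highest control cell (-0.58).

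Attachment genes sat slightly below the level of all genes. Of 13 hemidesmosome and basement membrane genes tested, 0 lay past 2-fold higher and 2 past 2-fold lower, with a median log2 ratio of -0.72 that became -0.05 with cells counted equally. Col17a1 had a log2 ratio of -0.79 (-0.98 to -0.59) and Itgb4 of -0.98 (-1.16 to -0.79), and both came to about 0 with cells counted equally (-0.03 and -0.02). Dst and Fras1 were the lower genes, at 243 and 112 CPM and at 28.2 and 9.83 CPM, and without its highest control cell Dst lay inside 2-fold (-0.87). Of 12 basal keratinocyte genes, 2 were higher (Krt15 and Cxcl14) and 2 lower (Dst and Igfbp2), with a median of -0.35. Igfbp2 also lay inside 2-fold without its highest control cell (-0.57). Krt15 had 1 and 272 UMIs, and reached 1 per 10000 in 0 control and 7 OTM cells, of which 1 was Odam-rich.

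Of 16 desmosome and tight junction genes tested, 1 was at least 2-fold lower and 0 higher, with a median log2 ratio of -0.43. The exception was Cldn1, the barrier claudin, at 272 and 51.9 CPM (log2 -2.39, -2.72 to -2.04), in 11 of 17 and 51 of 93 cells. A single cell held 66.0% of the control Cldn1 UMIs, and without it the log2 ratio was -0.98, just inside 2-fold. Perp stood at 1092 and 1046 CPM, and Dsg3 at 551 and 433 CPM.

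The genes lowest in the OTM epithelial cells were Postn, Amtn, Car2, Satb1, Hmox1, Dpysl2, Tnfrsf19, Edil3, Dmpk, Magi2, Sparcl1 and Cadm2. Postn, a matrix protein of the periodontal ligament, stood at 553 and 23.3 CPM (log2 -4.57, -4.92 to -4.23), in 12 of 17 and 15 of 93 cells. Single control cells reached 16.2 per 10000 with a median of 1.66, and OTM cells reached 6.94 with a median of 0. After thinning, 52.9% of control and 3.23% of OTM cells had a Postn UMI. Other cells held 902 and 1555 CPM, so the other cells went the opposite way.

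Sparcl1, a matricellular protein, stood at 764 and 81.7 CPM (log2 -3.23, -3.45 to -3.00), against 133 and 194 CPM in other cells. Cadm2, an adhesion molecule, stood at 246 and 29.5 CPM (-3.06, -3.45 to -2.67), against 10.8 and 3.34 CPM in other cells. Tnfrsf19, a receptor of epithelial progenitors, stood at 99.9 and 8.12 CPM (-3.62, -4.30 to -2.94). The Tnfrsf19, Satb1, Edil3, Dpysl2, Car2 and Magi2 sums held 24 to 54 control UMIs each. The fibroblast marker sum moved in the same direction (661 and 112 CPM, of which Postn was 553 and 23.3), and its part in the lower genes was not tested.

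Genes of tooth-forming epithelium and signals to bone went both ways, on short lists. Over all genes tested 10.7% lay past 2-fold higher and 10.0% past 2-fold lower. Of 12 odontogenic genes tested, 2 were at least 2-fold higher (Pthlh and Sox2) and 3 lower (Msx2, Dlx2 and Wnt10a), with a median log2 ratio of -0.36. Wnt4 stood at 392 and 357 CPM and Wnt10a at 343 and 166 CPM (log2 -1.05, -1.32 to -0.77), and without their highest control cells Wnt10a (-0.73) and Dlx2 (-0.97) lay inside 2-fold. Msx2 stood at 69.2 and 9.19 CPM (-2.91, -3.64 to -2.16) and stayed past 2-fold without its highest control cell.

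Of 10 bone signal genes, 1 lay past 2-fold higher and 2 past 2-fold lower, with a median log2 ratio of -0.39. The higher gene was Pthlh, a parathyroid hormone-like ligand that acts on bone cells, at 15.4 and 80.8 CPM (log2 2.39, 1.26 to 3.85), in 6 of 17 and 60 of 93 cells, with 104 and 58.4 CPM in other cells. Wnt5a stood at 231 and 102 CPM (-1.17, -1.50 to -0.83) and Bmp2 at 269 and 153 CPM. Of 9 EGF family genes, 3 were higher (Areg, Ereg and Errfi1), with Areg, a ligand of the EGF receptor, at 18 and 468 UMIs (log2 1.12, 0.44 to 1.88). Without the OTM cell highest in each gene, Errfi1 alone of the 3 stayed past 2-fold (Areg 0.98, Ereg 0.88).

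Of 21 wound edge and migration genes, 6 lay past 2-fold higher and 4 past 2-fold lower, with a median log2 ratio of -0.49. Mmp9, a gelatinase, stood at 12.8 and 76.3 CPM (log2 2.57, 1.34 to 4.21, but 0.60 without its highest OTM cell) in 1 and 12 cells, and Mmp10 was at 0 and 105 UMIs in 8 OTM cells. Thbs1 stood at 397 and 55.1 CPM (-2.85, -3.14 to -2.55, and -1.79 without its highest control cell). Fst, at 151 and 50.2 CPM (-1.59, -2.01 to -1.15), and Inhba, at 25 and 56 UMIs (-2.42, -3.12 to -1.68), rested on 1 control cell each, with 71.2% and 96.0% of the control UMIs. Without it Fst stood at 0.18, and Inhba had 1 control UMI left. Without the highest cell of either library 2 of the 6 higher and 1 of the 4 lower genes stayed past 2-fold. Of 6 mesenchymal transition genes, 0 were higher and 3 lower, among them Sparc at 838 and 190 CPM (-2.14, -2.33 to -1.95) against 13805 and 11732 CPM in other cells.

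Of 8 Notch genes 1 was lower and 0 were higher, namely Hes1, a target of the pathway, at 541 and 199 CPM (log2 -1.44, -1.66 to -1.22). Of 6 interferon and antigen presentation genes, Irf7 was the 1 at least 2-fold higher, on 1 and 87 UMIs, and 0 were lower.

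Immediate early and heat shock genes, which cell handling can induce, held few genes past 2-fold. Of 20 tested, 0 lay past 2-fold higher and 3 past 2-fold lower, with a median log2 ratio of -0.65 that became -0.12 with cells counted equally. The list total of the median cell went the other way, at 5915 CPM in control and 9637 CPM in OTM cells. None of the 3 (0 of 3) stayed past 2-fold without its highest control cell. Hspb1, a small heat shock protein, stood at 3930 and 1824 CPM (log2 -1.11, -1.19 to -1.03), Jun at 1414 and 818 CPM and Fos at 1399 and 845 CPM. In other cells the list summed to 17679 and 12384 CPM. In the control it was highest in the 5 cells that were not Odam-rich, at 30710 CPM against 11732 CPM in Odam-rich cells.

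**Figure D5:**
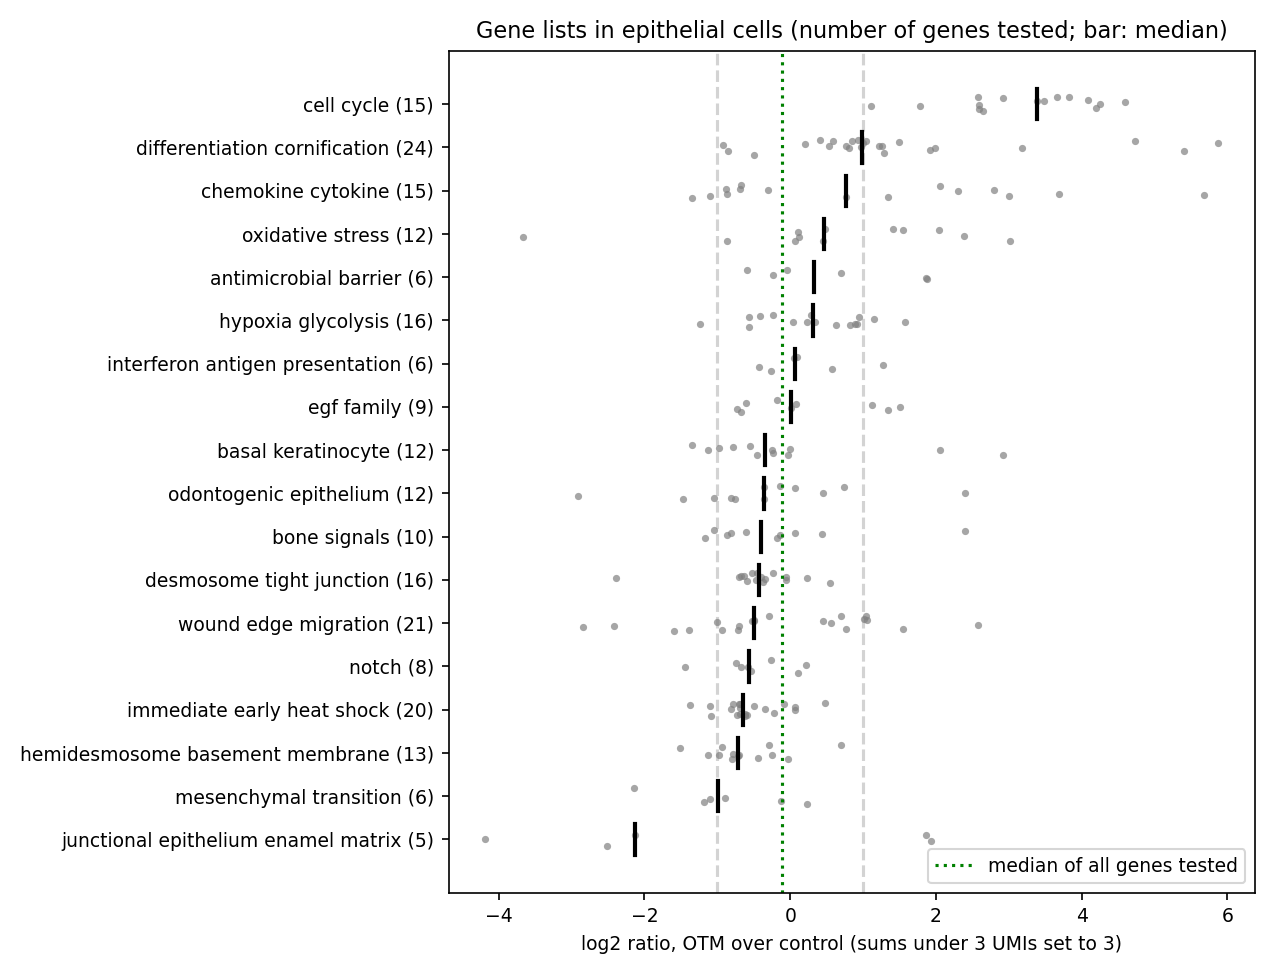
The horizontal axis is the log2 ratio of OTM over control with sums under 3 UMIs set to 3; each point is 1 tested gene, the black bar is the list median, the dotted line is the median of all genes (-0.11) and dashed lines mark 2-fold. The cell cycle list lies furthest right (median 3.39) and the junctional list of 5 genes furthest left (-2.13). Of these 5 genes, 2 lay past 2-fold higher (Slpi and Krt18) and 3 past 2-fold lower. Without the control cell highest in each gene the junctional median lay inside 2-fold.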

How the data were processed

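The deposited values are raw UMI counts of genes in barcodes. Per the file headers, Cell Ranger 7.0.1 wrote them. Seurat and the builds GRCm38 and mm10 are named in the submitters' processing notes. The authors' cell filter was not given in the sources used here. Of 32285 gene identifiers, 32158 were in GENCODE M21. Cells needed 200 genes and no more than 20% mitochondrial counts, and the epithelial rule was applied to them. Its members, the 18 gene lists and the 12 marker lists were chosen with earlier results of these data known.

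Counts were summed over the epithelial cells of each library (Python 3.11.15, SciPy 1.17.1) and divided by the summed total, so deep cells weigh more. Ratios carry the exact conditional binomial interval and shares the exact Clopper-Pearson interval at 95%. No test and no p-value was possible with 1 library per group. A gene was tested where at least 3 UMIs were expected in each library, and was called at 2-fold. Sums under 3 UMIs were set to 3 for list medians and bounds, while counts of genes past 2-fold used the plain ratio, so a gene at 0 in the control counts as higher.

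The rule for named genes took the 12 highest and 12 lowest by the interval bound nearest 0. They had to be found in at least 10% and 3 cells of the higher library, to reach 50% of the CPM of other cells there, and to keep direction over cells and without the top cell. Mitochondrial, ribosomal, haemoglobin, Gm, Rik, Xist, Y-linked and rule genes were left out. Odam-rich and Sprr2d-rich cells were compared with the remaining OTM cells in the same way. Of each list the most abundant genes and those past 2-fold could be named, and members were picked from these after their values were seen. Krt42, Krt4 to Krt19, S100a8, S100a9, Itgb4 and stress keratins in the Sprr2d-rich comparison were also picked with their values in view. Doublets were called with Scrublet (Scanpy 1.11.5) and TMM factors with edgeR 4.0.16. The ratio code was tested on simulated data. Values of 2 list members are not reported here.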

Additional observations from a re-analysis of the deposited data

How the results depend on the processing

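No paired analysis was possible because each group was 1 library. The control sums of 390282 UMIs from 17 cells set the limit: 0 UMIs of a gene there allows about 3. The epithelial share was 1.67% in the control and 2.34% in the OTM library when cells were thinned to 1500 UMIs. Only a handful of control cells then passed the rule, and the Odam-rich and Sprr2d-rich shares of these few were 100% and 60%. An Odam threshold of 0.05% gave 94.1% and 59.1%. Requiring 10 expected UMIs left 408 higher and 289 lower genes, no filter on low counts gave 6043 and 3117, and leaving out Odam-rich and Sprr2d-rich cells gave 529 lower genes.

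With cells counted equally, list medians were -0.12 for basal, -0.048 for hemidesmosome, -0.040 for cornification, -1.55 for junctional, -0.29 for antimicrobial and -0.12 for immediate early genes, and Cnfn (-0.87) and Sprr3 (-0.78) reversed. With 10 UMIs expected, they were -0.13 for junctional, 1.28 for antimicrobial and 2.18 for chemokine genes. With no filter on low counts they were -2.32 (junctional), -0.93 (odontogenic), -0.60 (antimicrobial), -0.87 (chemokine) and -0.45 (interferon). Without the deepest cell of each library they were -2.35 (junctional), 1.89 (chemokine) and -0.91 (immediate early). Without Odam-rich and Sprr2d-rich cells they were 0.0037 (hemidesmosome), 2.15 (cornification), 1.91 (cell cycle) and -1.30 (immediate early), and the junctional median reversed to 0.52. Ppbp (-0.94) and Cxcl14 (-0.57) came out negative there only because 0 control UMIs were set to 3, which shows no direction. The same floor lowers the ratios of cell cycle genes at 0 in the control in that setting. Without cells over 5% mitochondrial the junctional median was -2.23. Without Krt13-rich cells Sprr3 came out at -3.49, from sums so low that the floor of 3 UMIs may set the value, so no direction is read from it. Without the control cell that held most UMIs of each gene there were 1870 higher and 448 lower genes, list medians were -0.77 (junctional), 0.38 (wound edge) and -0.14 (immediate early), and Tnf (1.00), Fst (0.18) and Inhba (0.48, with 1 UMI set to 3) reversed. Without such an OTM cell the medians were 0.34 (cornification), -2.30 (junctional) and -0.40 (chemokine), and Cnfn (-0.38) and Sprr3 (-1.15) reversed. Taking out the highest cell lowers that library by construction, and the cause of the other shifts was not tested. The last 4 settings were chosen after seeing the data.

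Of 288 list medians under the alternatives, 259 stayed close to the main value, and of 895 single-gene ratios 716 did. These tallies include values that could not move. Keratin thresholds of 0.15% and 0.6% and leaving out doublets kept the same 17 control and 93 OTM cells. The 2 changes to the filter on low counts leave the ratio of a single gene as it was. The tallies are thus no measure of stability.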

Other observations

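Epithelial cells held transcripts of a few genes usually read as marks of other cells, in both libraries. Trbc2, a T cell receptor constant segment, stood at 279 CPM in control and 128 CPM in OTM epithelial cells (13 of 17 and 75 of 93 cells), against 0.961 and 5.58 CPM in other cells. The other T cell markers, Cd3e and Cd3d, were at 0 UMIs in these cells. Runx2, the transcription factor of bone-forming cells, stood at 489 and 444 CPM, against 379 and 400 CPM in other cells, while 3 of the 5 osteoblast markers were at 0 in the control epithelial cells.

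Krt23 was at 0 UMIs in the control and at 309 UMIs in 49 of 93 OTM epithelial cells, at least 8.59-fold higher, and was picked after its value was seen. Slpi reached 10 per 10000 in 2 control and 21 OTM cells, of which 2 and 15 were Odam-rich.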
